A study of Mus musculus with 4 samples.

Results

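The Zbtb16 locus was examined for Egr2 binding in 2 deposited peak lists, and a single listed region was found there, in NKT cells. The locus was defined as the mm9 interval from position 48400000 to 48700000 of chromosome 9, and every listed region overlapping it was taken. It held 1 of 1996 regions listed in NKT cells and 0 of 4216 regions listed in thymocytes of injected mice. The NKT region is chr9:48643773-48644749, and the definition of the locus places it at the Zbtb16 promoter. No mm9 annotation was used here, so its position relative to the transcription start and to exons is not given. Among named protein-coding genes in the RefSeq order of GRCm38, Zbtb16 lies between Nnmt and the serotonin receptor genes Htr3a and Htr3b.

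Zbtb16 encodes PLZF, a transcriptional regulator with a BTB domain and zinc fingers that directs the effector programme of natural killer T (NKT) cells. NKT cells are T cells that recognise lipids presented by CD1d and acquire a memory-like state as they mature. Egr2, also called Krox-20, binds DNA through zinc fingers and is induced by signals of the T cell receptor (TCR), and NKT precursors receive a strong TCR signal during selection.

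Chromatin immunoprecipitation with sequencing (ChIP-seq) was carried out with 1 anti-EGR2 antibody on 2 preparations of 20000000 cells each. The labels give the strain Va14tg to every library. NKT cells were enriched on magnetic beads with CD1d tetramers from Va14tg mice, with a mean of 10 mice pooled per experiment. The other cells were thymocytes taken 24 hours after an injection of 500 µg of an antibody against TCRβ (clone H57) into 3 to 5 mice, and no sorting of these cells is described. An IgG ChIP and an input DNA library are also listed in the series, were not analysed here, and cannot be assigned to the control values below. Peak lists hold no expression values, so the labelled cell types could not be checked against their markers. Each condition had 1 library of pooled mice, so that no difference between them has a replicate check, and all intervals below cover counting error only.

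The NKT region at Zbtb16 was broad and rested on many tags. It was 977 bp wide, against a median of 142 bp in the NKT list, and it held 187 ChIP tags (95% exact Poisson interval 161 to 216), against a median of 15. The control library had 9 tags there (4.12 to 17.1). The height at the summit, given by the authors as a ChIP tag density, was 28.1, against a median of 11.1 and a lowest listed value of 9.96. The control density at the summit was 0.28. The summit, at position 48644228, lay 455 bp from one edge and 521 bp from the other, close to the middle of the region. The nearest edges of the locus were 244 kb and 55.3 kb away, and no other listed region fell between them.

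**Figure D1:**
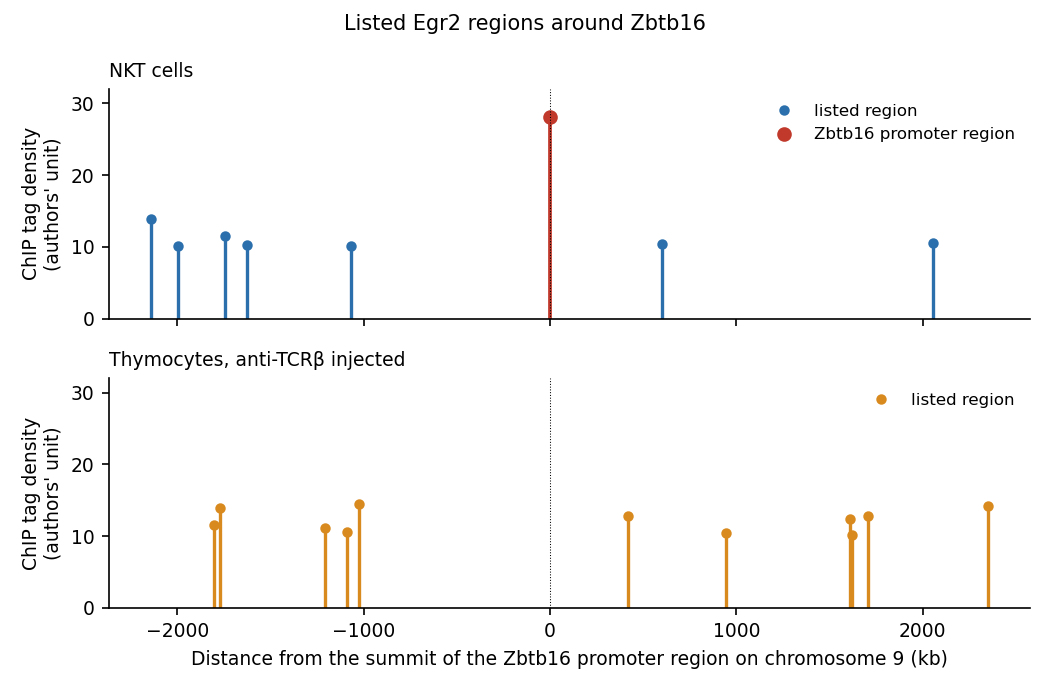
ChIP tag density at the summit (authors' unit, vertical axis) of every listed Egr2 region on chromosome 9 within 2500 kb of the Zbtb16 region, against the distance from its summit in kb, for NKT cells (upper panel) and thymocytes of injected mice (lower panel). The Zbtb16 region (red) reaches 28.1 in NKT cells, the 7 other NKT regions lie between 10.0 and 13.9, and the 11 regions of injected thymocytes lie between 10.2 and 14.5.

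The surroundings of the region held weak listed regions only. Within 2500 kb on either side, 7 other NKT regions were listed, with densities of 10.0 to 13.9 and 10 to 16 ChIP tags. In thymocytes of injected mice 11 regions were listed over the same distance, with densities of 10.2 to 14.5 and 12 to 25 tags. None of these regions overlapped a region of the other list, which was the usual outcome for NKT regions: 82.3% of all 1996 had no overlap. The matching share for the injected-thymocyte list was not computed. The NKT neighbours outside the locus were chr9:47574542-47574735, 1070 kb away with 16 ChIP and 6 control tags, and chr9:49245984-49246097, 602 kb away with 11 ChIP and 4 control tags. The stretch between them, 1.67 Mb with only the Zbtb16 region inside, was not long for this list. Of the 1976 single distances between adjacent summits, 24.2% were at least that long, although the stretch joins the distances on both sides of the Zbtb16 summit.

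No region was listed at Zbtb16 in thymocytes of injected mice. The neighbouring regions of that list were chr9:47620160-47620352, 1024 kb from the NKT summit with a density of 14.5, and chr9:49060760-49060883, 417 kb from it with a density of 12.8. They bounded a stretch of 1.44 Mb without a listed region, and 10.8% of 4196 distances in the list were at least that long. Extending the regions by up to 50000 bp found no overlap either. Lack of overlap was the usual outcome, because 82.3% of all NKT regions, and 51.9% of those in the top density quartile, overlapped no listed region of injected thymocytes. The distance of 417 kb to the nearest summit was also ordinary among the 1642 such NKT regions, whose median was 210 kb and whose quartiles were 75.5 and 448 kb.

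Among tall or tag-rich NKT regions an overlap was the more frequent outcome. Of the 16 NKT regions with a density at least that of the Zbtb16 region and a control density under 3, 4 (25%; 95% exact binomial interval 7.27% to 52.4%) overlapped no listed region of injected thymocytes. The 3 others were chr2:172909264-172909598, chr12:26742642-26742872 and chr16:8306557-8306890, with 65, 41 and 54 ChIP tags. Of the 67 regions with 40 or more ChIP tags and a control density under 3, 14 (20.9%; 11.9% to 32.6%) had no overlap. These subsets were set with the values of the Zbtb16 region known, and the region is itself counted in them. Among 42 other NKT regions with a density within 25% of its own and a control density under 3, 35 had a partner in injected thymocytes. The partners had densities of 15.05 to 90.4 with a median of 32.9, and 26 to 174 ChIP tags with a median of 65. The lowest listed density in injected thymocytes was 10.0. Partners are listed regions by definition, and the 7 regions without a partner have no such values. The partner values therefore do not show what density an unlisted region would have had.

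Absence from the list is not a measurement of zero binding. Regions are numbered in order of falling density, and of the numbers up to 4975 in injected thymocytes 759 were not analysed here, counting from 1. Among numbers 1 to 50 these were 15, and among numbers 51 to 102 they were 6. In the NKT list 889 of the numbers up to 2885 were not analysed here, among them 49 of numbers 1 to 50. The weak surroundings and the stretches given above therefore hold only for the regions analysed. Tags of the injected thymocytes at Zbtb16 were not analysed here.

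The tag count set the region apart from the rest of the NKT list more than its height did. By density it ranked 20th of the 1996 regions analysed, and its number in the authors' order was 103, with 83 of the 102 lower numbers not analysed here. By ChIP tags it ranked 4th and by width 9th. Among the 1844 regions with a control density under 3 it ranked 16th by density and 1st by both tags and width. The next highest tag count among these was 82, at chr1:137029055-137029432, so that the Zbtb16 region held 2.28 times as many. The next widest was 700 bp. The locus was chosen by its position and with the width, tags and low control density of this region known, so these measures are a description and carry no test.

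**Figure D2:**
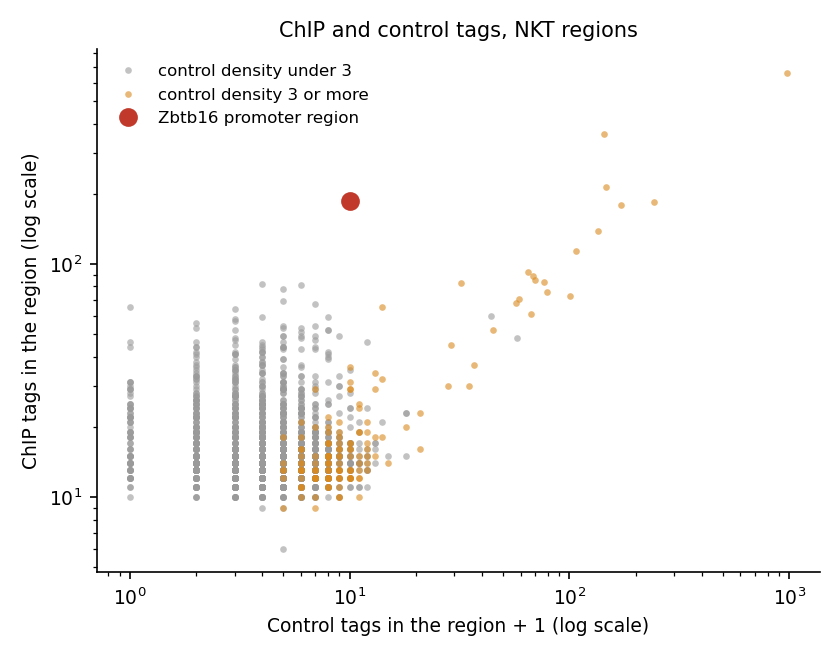
ChIP tags against control tags + 1 for all 1996 NKT regions, both on log scales, with regions of control density under 3 in grey and of 3 or more in orange. The Zbtb16 region (red) has 187 ChIP tags and 9 control tags, while the regions with more than 100 ChIP tags besides it have 106 to 975 control tags.

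The NKT regions nearest in number of ChIP tags were of another kind. The 5 NKT regions nearest in tag count held 114 to 214 ChIP tags, but also 106 to 242 control tags. The first was chrX:166429995-166431521, with 184 ChIP tags over 242 control tags, and the second chr1:90119756-90121284, with 179 over 171. The third, chr1:90112002-90113762, had 214 over 146. The other two were chr11:88829553-88830823, with 138 over 134, and chr1:26743849-26745182, with 114 over 106. All 5 were wider than the Zbtb16 region, at 1271 to 1761 bp, and their control densities were 3.54 to 7.09. The Zbtb16 region was thus narrower than each of these 5 regions and had a lower control signal than any of them. Only the first 3 had a tag count within 25% of its own.

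In thymocytes of injected mice, regions with about as many tags included narrow and tall ones. Among the 6 nearest in tag count, chr6:90319236-90319644 held 174 ChIP tags in 409 bp and chr3:153575771-153576264 held 173 in 494 bp, with densities of 90.4 and 97.0 and no control tag in either. The region chrX:7151378-7152001 held 180 ChIP tags and 1 control tag in 624 bp, with a density of 54.3. The remaining 3 had 42 to 82 control tags. At Zbtb16 in NKT cells the 187 tags came with a density of 28.1 and a width of 977 bp. The densities of the 2 lists are on scales that were not shown to be the same, and no ratio between them is given. Library depths are also unknown, so a like tag count in the 2 lists need not be a like level of enrichment.

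In the NKT list 8 regions were wider than the one at Zbtb16, and each of the 8 had high control signal. Their widths were 1133 to 2961 bp, their control tags 69 to 975 and their control densities 3.54 to 18.8. The ratio of ChIP to control tags, scaled by the factor of 1.14 that the NKT list uses, was 0.768 at chr6:124834746-124837706 (95% exact interval 0.694 to 0.848), the widest of all. The highest ratio of the 8 was 2.87 (2.36 to 3.51), at chr11:3003335-3004809. At Zbtb16 the ratio was 23.6 (12.2 to 52.4). The low control signal of this region was known when it was chosen, so the ratios are set side by side as a description.

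**Figure D3:**
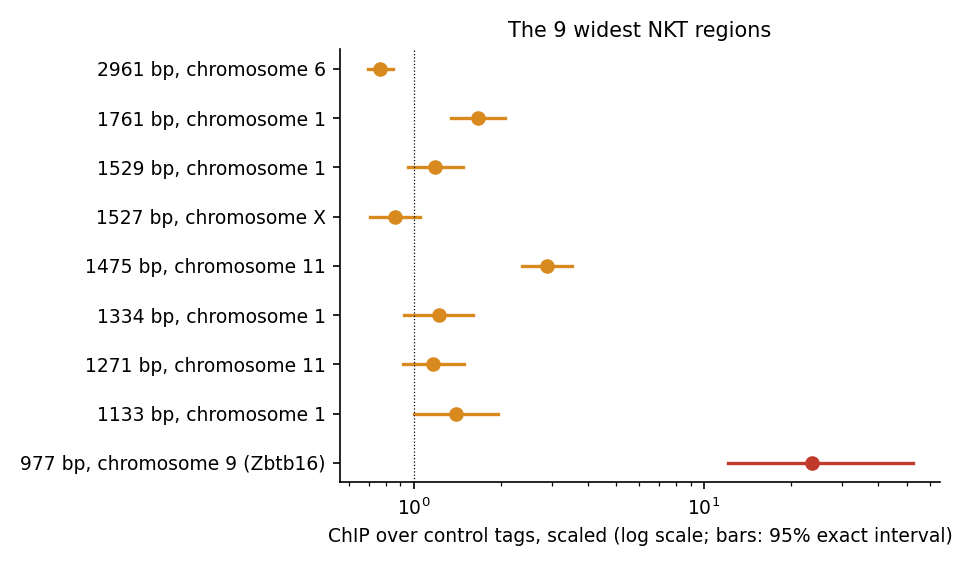
Ratio of ChIP to control tags, scaled by the list's factor, with 95% exact intervals (bars) on a log scale, for the 9 widest NKT regions in order of width. The 8 wider regions lie between 0.768 and 2.87, and the Zbtb16 region (red) lies at 23.6; the dotted line marks a ratio of 1.

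The deposited tag enrichment of the Zbtb16 region, 16.6, is lower than the ratio of 23.6. Over all regions of both lists the deposited value equalled the scaled ratio of ChIP tags to the larger of the counted control tags and a floor, to within 0.334%. The floor rises with width and is 0.0131 control tags per bp in the NKT list, applied to at least 300 bp. For 977 bp this gives 12.8 control tags, more than the 9 counted. The control library thus had 9.21 tags per kb at Zbtb16 (4.21 to 17.5), against a floor of 13.1 per kb and a median of 25.3 per kb over NKT regions. The counting interval includes the floor. Even on the floor, the enrichment of 16.6 ranked 5th of 1996, where the median was 3.74 and the highest value 18.8.

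The wide Zbtb16 region was on average at least as densely covered with tags as narrow regions of like height. It averaged 191 ChIP tags per kb (165 to 221). The 42 regions of like density with a control density under 3 averaged 117 to 180 per kb, over widths of 231 to 421 bp, with a median width of 320 bp. The Zbtb16 region was 3.05 times as wide as that median and held 4.07 times the median of 46 tags. The number of ChIP tags per unit of density was 6.66 at Zbtb16 and 1.39 to 2.56 in these 42 regions, with no overlap. Among all NKT regions with a control density under 3 the next highest value was 4.41. Over all 1996 NKT regions the value at Zbtb16 ranked 7th. Of the 8 wider regions, all with a control density above 3, 6 had a value at least as high, and the lowest was 5.77. The value thus set Zbtb16 apart from regions with low control signal, and not from other wide regions.

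**Figure D4:**
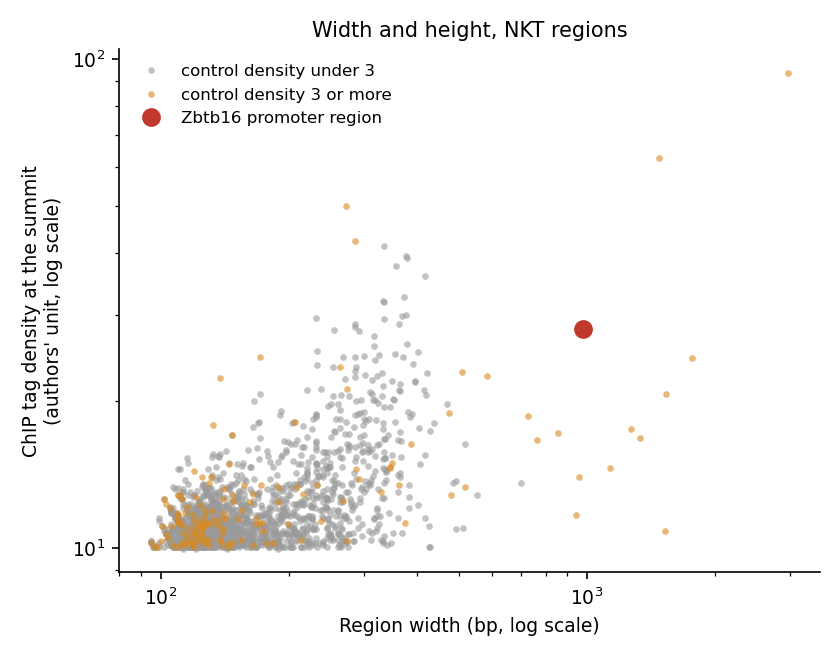
ChIP tag density at the summit (authors' unit) against region width in bp for all 1996 NKT regions, both on log scales, with regions of control density under 3 in grey and of 3 or more in orange. The Zbtb16 region (red), at 977 bp and 28.1, lies to the right of every grey point, and the wider regions are all orange.

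The peak line paired with the region carries the number 3 within its region. The other NKT regions carried the number 1 in 1983 cases and 2 in 12 cases, so the Zbtb16 region was the only one with a 3. The paired peak is the highest of the region, since its position equals the region's maximum. In the lists as analysed here each region is paired with 1 peak line, and no line numbered 1 or 2 was at hand for this region, so how the number 3 arose is not known. Of the 13 NKT regions with a number above 1, 9 had a control density under 3. The 8 of these besides Zbtb16 were 263 to 518 bp wide with 25 to 54 tags, and 7 of the 8 overlapped a listed region of injected thymocytes. This subset of 9 was set with the values of the Zbtb16 region known, so its share is a description only. With Zbtb16 counted, 2 of the 9 (22.2%, 95% exact binomial interval 2.81% to 60.01%) had no overlap, and Zbtb16 is itself 1 of these 2. Among all NKT regions 82.3% had none. The share was 20.9% among the 67 NKT regions with 40 or more ChIP tags and a control density under 3. Peak number and tag count were not separated here. In injected thymocytes 3 regions with a number above 2 had a control density under 3. The widest of them was chr1:194999300-195000123, with 824 bp, 110 ChIP tags, 4 control tags and a density of 24.6, and it was also listed in NKT cells.

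The strand shift, the deposited offset in bp between forward-strand and reverse-strand tags, was long at Zbtb16 for the NKT list. The peak line gave 104 bp, against a median of 45 bp over NKT peaks and 86 bp over peaks of injected thymocytes. It ranked 71st of 1996 from the longest. In the 42 regions of like density and low control the shifts were 50 to 107 bp with a median of 70 bp, and 1 of the 42 reached 104 bp. That region, chr8:87437107-87437497, carries the peak number 2 and has a shift of 107 bp. The 8 other regions with a number above 1 and low control had shifts of 51 to 107 bp with a median of 89 bp. Among 66 other regions with 40 or more ChIP tags and a control density under 3, the median was 77 bp and 3 reached 104 bp. Of the 8 regions wider than the one at Zbtb16, with shifts of 42 to 174 bp, 3 reached 104 bp. Of the 475 NKT regions whose shift was at least 60 bp, 46.3% (41.8% to 50.9%) overlapped no listed region of injected thymocytes, against 82.3% of all NKT regions.

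The region line gave another shift, 200 bp, with a strand correlation of 0.299, where the peak line had a correlation of 0.844. The value of 200 is the end of the range in the list, which runs from -200 to 200, and 25 NKT regions share it. The correlation of the region line ranked 1907th of 1996 from the highest, where the median was 0.885, whereas the correlation of the peak line was close to the median of 0.886. The 8 wider NKT regions had region correlations of 0.107 to 0.295. The 104 bp of the peak line is therefore the shift given for this region here.

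**Figure D5:**
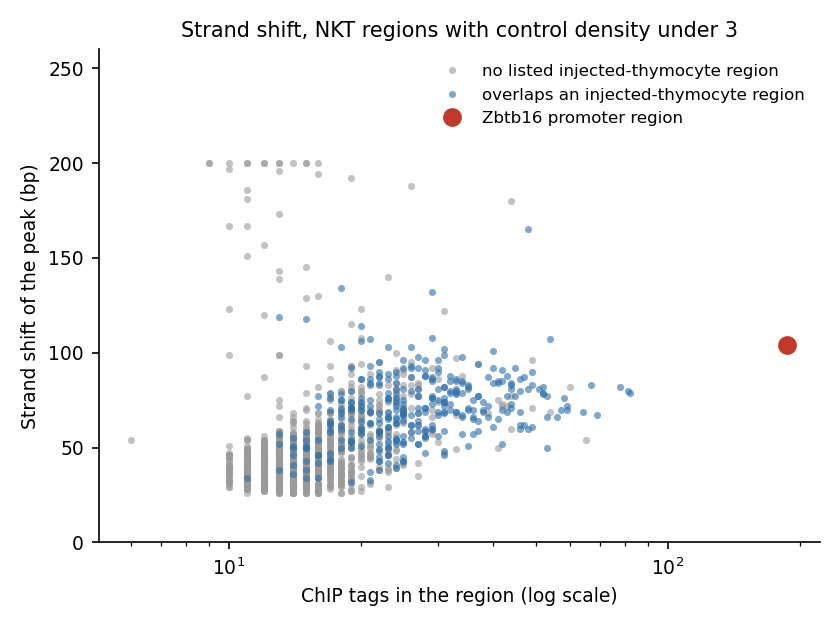
Strand shift of the peak in bp against ChIP tags (log scale) for NKT regions with a control density under 3, in blue where a listed region of injected thymocytes overlaps and in grey where none does. The Zbtb16 region (red) has a shift of 104 bp at 187 tags, and the next highest tag count is 82.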

How the data were processed

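Egr2 ChIP-seq peak lists of 2 mouse libraries, 1 per condition, were used as deposited. The submitters' processing notes name Bowtie and the mm9 build; the Bowtie version, the peak caller and its control library are not given in the sources used here. Libraries were made from 100 ng of ChIP DNA with 16 PCR cycles and fragments of 150 to 400 bp, per the labels' protocols. Each deposited region holds whole counts of ChIP and control tags, and each summit holds a ChIP and a control signal (tag density) of unstated scale. The deposited fold is the ratio of these densities, the control taken as at least 1. Library depths are unknown, and tag counts set the precision.

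Regions overlapping the locus by at least 1 bp were taken, coordinates as the lists give them. List factors came from regions with more than 50 control tags, and their computation was checked on a simulated list with a known factor. Intervals are exact (Clopper-Pearson or Poisson, 95%). PCR duplicates may make them too narrow. No test between conditions was possible. Named regions were those of the locus, their neighbours and those nearest in ChIP tags, besides regions singled out after their values were seen. The locus, the subsets and the lists were chosen with earlier results of these data known. Alternatives for the window, ratio, ranking, overlap and subsets were run. The RefSeq promoter table (GRCm38) was searched for Zbtb16, with 0 entries. Python 3.11.15, pandas 2.3.3, scipy 1.17.1 and matplotlib 3.10.9 were used.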

Additional observations from a re-analysis of the deposited data

How the results depend on the processing

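Of 36 alternatives, 20 stayed within 1.5 times or within the counting interval of the value reported and 16 moved. The NKT locus held 1 region, or 2 within 2 Mb centred on the summit; the injected-thymocyte list had 0, then 1 with 500 kb added to each side or within 1 Mb, and 2 within 2 Mb. The ratio of 23.6 became 20.8 unscaled and 16.6 as deposited, both within its interval. The factor was the same from regions with over 20 or over 100 control tags. The deposited density fold, 28.1, also lay within that interval. In it the control density of 0.28 was taken as 1, so it restates the height and is no separate check of the ratio. The rank of 20 by density became 4 by tags, 9 by width, 12 by fold, 5 by tag enrichment and 71 by strand shift, and 10 with a control density under 1. All 3 regions with a tag count within 25% (100%) were wider, with control densities of 3.54 to 7.09. Of the 49 regions with a density within 25%, 2.04% were wider. The 82.3% of NKT regions without overlap became 46.3% at shifts of 60 bp or more and 51.9% in the top density quartile. In subsets added after seeing the data it was 25% at or above the height of the Zbtb16 region, 20.9% with 40 or more tags and 22.2% with a peak number above 1, each with a control density under 3. The motif search and the gene list were not run. No paired analysis was possible because each condition has 1 library.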
